A study of Mus musculus with 7 samples.

Results

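The integrated stress response genes described here are 10 genes out of 55367 gene symbols measured: the kinase gene Eif2ak1, the transcription factor genes Atf4, Atf3, Atf5 and Ddit3, and Trib3, Asns, Chac1, Ppp1r15a and Nupr1. They were taken by name as a written list of pathway members with no threshold on measured values, and the list was drawn up with earlier results of these data known. All 10 had a row in each of the 7 libraries, 8 were above 0 in every library, and Atf3 and Chac1 were listed at 0 in every library.

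The libraries are polyadenylated RNA from G1E-ER4, a mouse erythroid progenitor line without functional GATA1 that carries an introduced GATA1 joined to the estrogen receptor's ligand-binding domain, so that estradiol restores GATA1 activity and starts maturation. All cells grew in serum with erythropoietin and conditioned medium from cells that make Kit ligand. The 0 h group is 1 library of undifferentiated control cells. The 24 h control group is 3 libraries after 24 h in 100 nM β-estradiol, and the 24 h DTPA group is 3 libraries after the same treatment plus DTPA at 50 µM from the moment differentiation began. DTPA is a chelator of zinc and other metals; the labels name its effect zinc deficiency, and zinc itself is not among the values analysed here. The labels call the replicates biological without saying whether cultures were separate, so p-values measure only the spread between these libraries, which may in part be technical. No source used here says whether controls received a vehicle. The libraries include none at 24 h without estradiol, so comparisons with 0 h cannot tell the treatment from the added time in culture. Changes with differentiation below mean changes from 0 h to 24 h in these cells.

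The integrated stress response lowers protein synthesis when a cell lacks heme or amino acids, carries unfolded protein, or meets double-stranded RNA. A kinase for each kind of signal phosphorylates the translation factor eIF2, which slows initiation on most messenger RNAs but favours translation of a few, among them Atf4, whose protein activates genes of amino acid supply and feedback. In erythroid cells the main kinase is the heme-regulated inhibitor encoded by Eif2ak1, which is active when heme is short and so keeps globin synthesis in step with heme. Because phosphorylation and translation carry much of the response, transcript levels describe only part of it.

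Estimated depth was 17.52 to 21.19 M reads per library, and the 8 detected genes had 112 to 17899 estimated reads each per library. The labelled cell type was checked against 16 erythroid markers, of which 15 had a row and all 15 reached at least 1 TPM (a level per gene length, as a share of all transcripts of the library) in every library. Their summed level was 13726 TPM at 0 h, 56694 to 60808 TPM in the controls and 65368 to 83463 TPM under DTPA. Of the megakaryocyte markers, Ppbp and Vwf were at 0 in every library, and the list summed to 39.5 TPM at 0 h, 9.08 to 12.7 TPM in the controls and 42.4 to 51.5 TPM under DTPA. The 9 myeloid and mast cell markers summed to at most 14.9 TPM in a library, the 5 lymphoid ones to at most 2.82 TPM and the 4 fibroblast ones to at most 0.16 TPM. The part of these markers in the results below was not tested. In such bulk samples, fewer cells of a kind and less RNA per cell cannot be told apart.

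On GRCm38, the assembly also called mm10, the members lie on 7 chromosomes. Atf5, Ppp1r15a and Nupr1 are on chromosome 7, at 44812256-44816658, 45522916-45526268 and 126623249-126630861, all on the minus strand. Chac1 and Trib3 are on chromosome 2, at 119351229-119354381 on the plus strand and 152337422-152344032 on the minus strand. Eif2ak1 spans 143817788-143904251 on the plus strand of chromosome 5, Atf4 spans 80255184-80257541 on the plus strand of chromosome 15, and Ddit3 spans 127290774-127296288 on the plus strand of chromosome 10. Asns is at 7675169-7693254 on chromosome 6 and Atf3 at 191170296-191218039 on chromosome 1, both on the minus strand. All are protein-coding, and the values are given per gene symbol and not per transcript.

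The promoters were searched for letters known from this pathway, since the members are grouped as ATF4 genes by reputation and not by these data. Letters of GATA sites and metal response elements, which are not of this pathway, were searched as well. RefSeq windows of 250 bases before to 50 after a start site, on GRCm38.p6, matched all 10 members, with 11 windows because Atf5 has 2. The C/EBP-ATF response element, searched as TGATGNAAN on both strands, stood in a window of 5 of the 10 members (Atf3, Trib3, Asns, Chac1 and Nupr1) and in 3.95% of all 32851 windows of that length. The cyclic AMP response element TGACGTCA stood in that of Ppp1r15a alone among the members and in 1.79% of all windows. The GATA site AGATAA stood in those of Ddit3 and Ppp1r15a and in 11.2% of all, and the metal response element core, TGCACNC or TGCGCNC, in those of Atf3, Ddit3 and Asns and in 25.7% of all. No match to a motif overlapped a match to another among the members. Stretches before the start site are shown for the 4 members with the C/EBP-ATF letters there and for Ppp1r15a, on the gene's strand. Capitals mark the C/EBP-ATF letters and, in Ppp1r15a, the cyclic AMP response element. The metal response element match of Asns, 49 bases before the start, is left in lower case. Except in Asns and Ppp1r15a, the capitals are the motif read from the other strand. The first capital lies 111 bases before the start in Atf3 and in Nupr1, 23 in Asns, 194 in Chac1 and 12 in Ppp1r15a. The start is the RefSeq one, which in Atf3 and Nupr1 lies well inside the gene span given above. A match is a description of the letters and not a binding site.
Asns, chr6:7693210-7693268, minus: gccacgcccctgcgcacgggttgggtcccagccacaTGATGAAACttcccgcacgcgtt
Nupr1, chr7:126625538-126625617, minus: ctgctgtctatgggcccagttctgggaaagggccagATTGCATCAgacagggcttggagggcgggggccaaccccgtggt
Atf3, chr1:191183401-191183480, minus: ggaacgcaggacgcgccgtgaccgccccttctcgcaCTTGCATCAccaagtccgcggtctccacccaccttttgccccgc
Chac1, chr2:119351012-119351091, plus: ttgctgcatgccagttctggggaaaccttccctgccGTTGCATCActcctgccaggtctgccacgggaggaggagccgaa
Ppp1r15a, chr7:45526269-45526316, minus: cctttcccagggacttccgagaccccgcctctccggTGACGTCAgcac

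The genes with the C/EBP-ATF letters did not share a level, nor a direction with differentiation. Atf3 and Chac1 were at 0 throughout, Trib3 and Asns fell with differentiation and Nupr1 rose, as given below. For DTPA against control, the detected ones had log2 fold changes of -0.86 (Asns), -0.76 (Nupr1) and -0.19 (Trib3). That of Trib3 did not pass the threshold given below. Atf5, Ppp1r15a and Eif2ak1, which lack the letters, were also lower under DTPA.

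With differentiation under control zinc, the stress response genes went in opposite directions. The kinase gene Eif2ak1, the feedback phosphatase gene Ppp1r15a, the CHOP gene Ddit3 and Nupr1 rose, while the amino acid gene Asns and the pseudokinase gene Trib3 fell. Atf4 itself was lower at 24 h but by less than 2-fold. Of 8 members tested for control at 24 h against 0 h, 6 were called, 4 higher and 2 lower, where a call needs a limma adjusted p under 0.05 and at least a 2-fold change on log2(TPM + 1). Among all 11906 genes tested, 39.4% were called, 15.1% higher and 24.3% lower. The 0 h library has no replicate and was assumed to vary like the other groups. The median log2 fold change was 0.71 over the 8 members and -0.22 over all genes tested.

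On the deposited scale no member was called higher under DTPA, and the gene with the largest fall was Asns. Of 8 members tested for DTPA against control at 24 h, 5 were lower (Asns, Nupr1, Atf5, Ppp1r15a and Eif2ak1) and 3 did not pass (Atf4, Ddit3 and Trib3), at a limma adjusted p under 0.05. This comparison was broad: of 11147 genes tested, 58.1% were called, 21.7% higher and 36.4% lower. Values of control and DTPA libraries did not overlap for 6 members, the 5 that fell and Ddit3, and for 65% of all genes tested. The median log2 fold change was -0.23 over the 8 members and -0.09 over all genes. Scaling moved that last median to 0.002 with median-of-ratios size factors and to 0.01 with quantile normalization, so each change is also given relative to it.

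**Figure D1:**
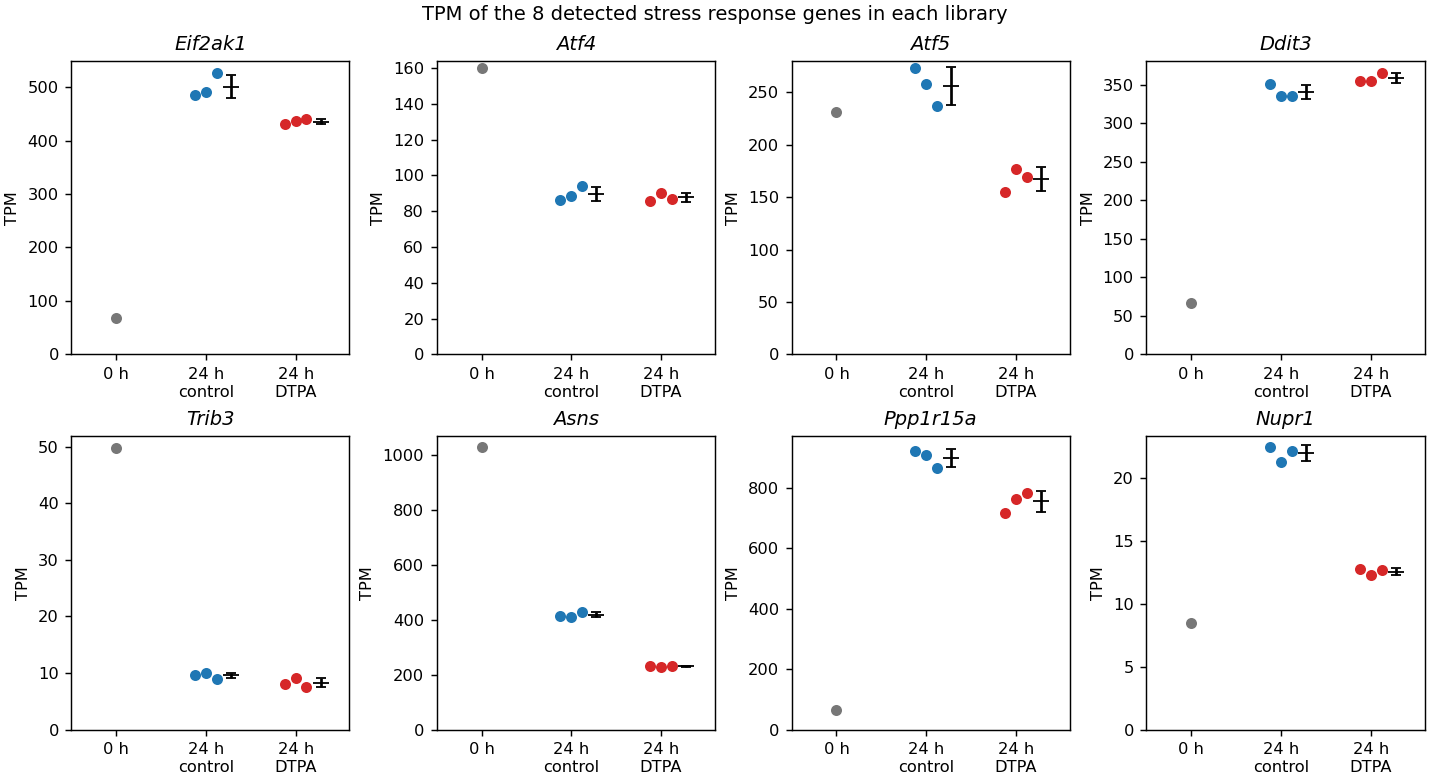
TPM of the 8 detected genes (vertical axes, each from 0) in the 0 h library (grey), the 3 control libraries (blue) and the 3 DTPA libraries (red) at 24 h; bars are the mean and SD of 3 libraries. Eif2ak1, Ddit3 and Ppp1r15a are far higher in all 24 h libraries than at 0 h, Trib3 and Asns far lower, and Asns and Nupr1 separate clearly between control and DTPA.

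Eif2ak1, the heme-regulated kinase gene, was among the members most changed by differentiation. Its level was 68.0 TPM at 0 h, then 486, 491 and 526 TPM in the controls and 431, 436 and 439 TPM under DTPA. All 24 h libraries were far above the 0 h library, and every DTPA library was below every control. The rise in the controls was 7.36-fold, or 2.86 ± 0.0518 on the log2 scale (limma adjusted p = 4.52e-07), where ± after a log2 fold change is its SE here and below. The difference between DTPA and control was small, a log2 fold change of -0.20 ± 0.041 (adjusted p = 0.004), or -0.11 relative to the median gene. Under quantile normalization the call was lost (-0.06, adjusted p = 0.223). Exons of Eif2ak1 share 487 bases, 8.59% of its exon length, with Aimp2 on the other strand, and 172 bases with Ankrd61. No source used here says whether the counting used strand. Aimp2 went the other way with differentiation, from 163 TPM at 0 h to 94.8 ± 1.55 TPM (SD, n = 3) in the controls.

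Eif2ak1 also came to hold most of the transcript of its kinase family. The other kinases are Eif2ak2, which senses double-stranded RNA, Eif2ak3, which senses unfolded protein in the endoplasmic reticulum, and Eif2ak4, which senses uncharged transfer RNA. On the TPM scale, Eif2ak1 made up 52.4% of the sum of the 4 at 0 h, 90.9%, 91.3% and 91.2% in the controls and 91.9%, 92.0% and 91.5% under DTPA. The share was slightly higher in every DTPA library than in every control, which was not tested. Eif2ak2 had 31.5 TPM at 0 h, 18.7 TPM on average in the controls and 17.1 TPM under DTPA. Eif2ak3 had 8.31, 12.0 and 8.70 TPM, and Eif2ak4 21.8, 18.1 and 13.0 TPM. Under DTPA, Eif2ak4 fell by 0.44 and Eif2ak3 by 0.43 on the log2 scale (limma adjusted p = 9.69e-04 and 0.00119), while Eif2ak2 did not pass (adjusted p = 0.153).

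**Figure D2:**
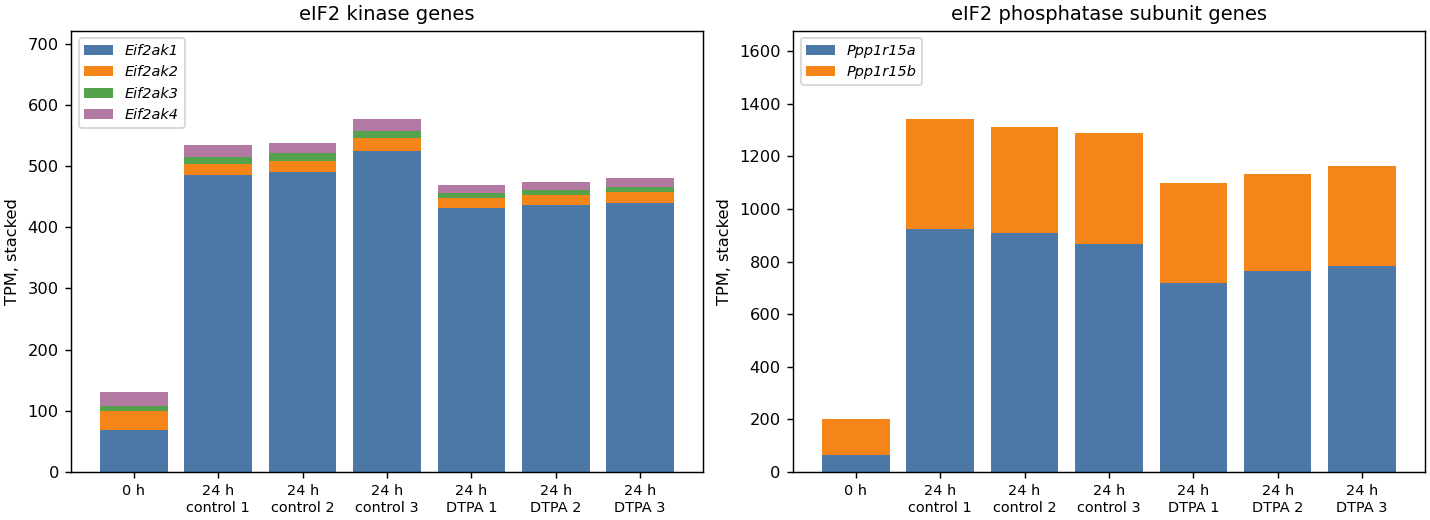
Stacked TPM in each of the 7 libraries of the 4 eIF2 kinase genes (left) and of the 2 genes for the regulatory subunits of the eIF2 phosphatase (right). Eif2ak1 goes from 52.4% of the kinase sum at 0 h to 90.9% or more in every 24 h library, and both stacks are tallest in the controls.

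Atf4, the central transcription factor of the response, had the smallest difference between the groups at 24 h on the deposited scale. It stood at 160 TPM at 0 h. The control libraries had 86.4, 88.5 and 94.0 TPM and the DTPA libraries 85.9, 90.5 and 87.0 TPM. The 24 h groups overlapped, and all 24 h libraries were below the 0 h library. Control against 0 h gave a log2 fold change of -0.83 ± 0.0586 (limma adjusted p = 4.75e-05), short of the 2-fold minimum. DTPA against control gave -0.03, with a 95% interval of -0.14 to 0.08 (adjusted p = 0.62), or 0.06 relative to the median gene. The sign turned with the scaling. The value was 0.07 with median-of-ratios size factors, 0.002 without globin genes and 0.13 with quantile normalization, which passed the threshold (adjusted p = 0.0402). It was also 0.005 without control replicate 3. These values are transcript levels, whereas the factor is controlled largely in translation.

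Atf5, a related factor whose translation is also favoured when eIF2 is phosphorylated, fell under DTPA. It had 231 TPM at 0 h, 273, 258 and 238 TPM in the controls and 155, 177 and 170 TPM under DTPA. Every DTPA library lay below the 0 h library and below every control. The log2 fold change of DTPA against control was -0.61 ± 0.068 (limma adjusted p = 1.70e-04), or -0.52 relative to the median gene, and control against 0 h gave 0.14, with a 95% interval of -0.10 to 0.39 (adjusted p = 0.238). Atf5 shares 82 bases of exon, 4.11% of its length, with Nup62 on the other strand, which had 438 TPM at 0 h, 206 ± 11.4 TPM in the controls and 110 ± 8.4 TPM (SD, n = 3) under DTPA. The part of that overlap was not tested.

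Ddit3 encodes CHOP, a factor induced downstream of ATF4 and known for its part in stress-induced cell death. Its level was 66.2 TPM at 0 h, 351, 335 and 336 TPM in the controls and 355, 355 and 366 TPM under DTPA. The rise with differentiation was 5.15-fold, a log2 fold change of 2.35 ± 0.0419 (limma adjusted p = 4.38e-07), and it was present in all 6 libraries at 24 h. All DTPA libraries were slightly above all controls. Relative to the median gene that difference was 0.16. On the deposited scale it did not pass, with a log2 fold change of 0.07 and a 95% interval of -0.01 to 0.16 (adjusted p = 0.125). It passed with size factors (0.17, adjusted p = 0.00531), with quantile normalization (0.18, adjusted p = 0.00331) and without globin genes (0.10, adjusted p = 0.038). A second row of the same symbol was at 0 in all 7 libraries; its gene model of 105 bases lies wholly within exons of the first on the same strand. Ddit3 also shares 68 bases with the methionyl-tRNA synthetase gene Mars1 on the other strand, which had 220 TPM at 0 h, 99.4 TPM on average in the controls and 65.5 TPM under DTPA.

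Atf3, a stress-induced factor of the same family, was listed at 0 in all 7 libraries. So was Chac1, whose product degrades glutathione and which is a well-known CHOP and ATF4 target. If the listed 0 is a count of 0, it allows up to 3 reads, which for these gene lengths is 0.194 to 0.24 TPM for Atf3 and 0.255 to 0.315 TPM for Chac1, for counting error only. Of 39 proteasome subunit genes, 3 were also at 0 in every library: Psma8, known from testis, Psmb11, known from thymus, and Psmb8, of the immunoproteasome. No cytosolic ribosomal protein, mitochondrial ribosomal protein, RNA polymerase subunit or aminoacyl-tRNA synthetase gene among the 72, 75, 26 and 17 symbols examined was at 0 in all libraries. Neither gene entered a test.

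Asns, which encodes asparagine synthetase and is a standard readout of ATF4, was the most abundant member at 0 h. It went from 1027 TPM at 0 h to 413, 411 and 429 TPM in the controls and 231, 226 and 232 TPM under DTPA. The 3 groups did not overlap, and the DTPA libraries were lowest. The fall in the controls was 2.46-fold, by 1.30 on the log2 scale (limma adjusted p = 2.06e-06). DTPA against control gave -0.86 ± 0.0351 (adjusted p = 1.08e-06), or -0.77 relative to the median gene, and DTPA libraries were 4.47-fold below 0 h.

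Trib3, a pseudokinase induced by ATF4 and CHOP that feeds back on ATF4, fell with differentiation. The level at 0 h was 49.8 TPM, against 9.68, 10 and 9.02 TPM in the controls and 8.10, 9.12 and 7.53 TPM under DTPA. All libraries at 24 h were well below the 0 h library, and the 24 h groups overlapped. Control against 0 h gave a log2 fold change of -2.27 ± 0.117 (limma adjusted p = 1.33e-05), a 5.20-fold fall. DTPA against control gave -0.19, with a 95% interval of -0.40 to 0.01 (adjusted p = 0.0925), or -0.10 relative to the median gene. Among the alternatives run, it passed only without DTPA replicate 2 (-0.26, adjusted p = 0.0463). With 112 to 132 estimated reads per library at 24 h, Trib3 was the least deeply covered of the 8 detected members at 24 h.

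Nupr1 encodes a small stress-induced chromatin protein. It had 8.48 TPM at 0 h, 22.5, 21.3 and 22.2 TPM in the controls and 12.7, 12.3 and 12.7 TPM under DTPA. The DTPA libraries lay between the 0 h library and the controls, with no overlap. The rise in the controls was 2.59-fold, by a log2 fold change of 1.28 ± 0.0665 (limma adjusted p = 1.40e-05). DTPA against control gave -0.76 ± 0.0542 (adjusted p = 1.71e-05), or -0.67 relative to the median gene.

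Ppp1r15a encodes GADD34, the inducible subunit that brings protein phosphatase 1 to eIF2 and ends the response, and it had the largest change of all members. From 63.3 TPM at 0 h it reached 922, 909 and 865 TPM in the controls and 719, 763 and 785 TPM under DTPA. Every control exceeded every DTPA library. The rise in the controls was 14.2-fold, a log2 fold change of 3.81 ± 0.0628 (limma adjusted p = 3.79e-07). DTPA against control gave -0.25 ± 0.0464 (adjusted p = 0.00247), or -0.16 relative to the median gene. Its constitutive counterpart Ppp1r15b also rose, from 138 to 415 TPM on average in the controls (adjusted p = 1.17e-06), and had 375 TPM under DTPA. Ppp1r15a made up 31.4% of the sum of the 2 at 0 h, 67.1% to 69.2% in the controls and 65.5% to 67.5% under DTPA. Ppp1r15a shares 12 bases of exon with Tulp2 on the other strand, 0.409% of its length. Tulp2 moved in the same directions, with 1.5 TPM at 0 h, 41.9 TPM on average in the controls and 19.4 TPM under DTPA. The part of that overlap was not tested.

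The order of the members changed accordingly. At 0 h, Asns was followed by Atf5, Atf4, Eif2ak1, Ddit3, Ppp1r15a, Trib3 and Nupr1, with Eif2ak1, Ddit3 and Ppp1r15a between 63.3 and 68.0 TPM in the 1 library. In the controls the order was Ppp1r15a, Eif2ak1, Asns, Ddit3, Atf5, Atf4, Nupr1 and Trib3, and no neighbours overlapped. Under DTPA, Ddit3 stood above Asns, the other places were as in the controls, and again no neighbours overlapped. Coefficients of variation within a group ran from 0.979% (Eif2ak1 under DTPA) to 9.76% (Trib3 under DTPA).

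**Figure D3:**
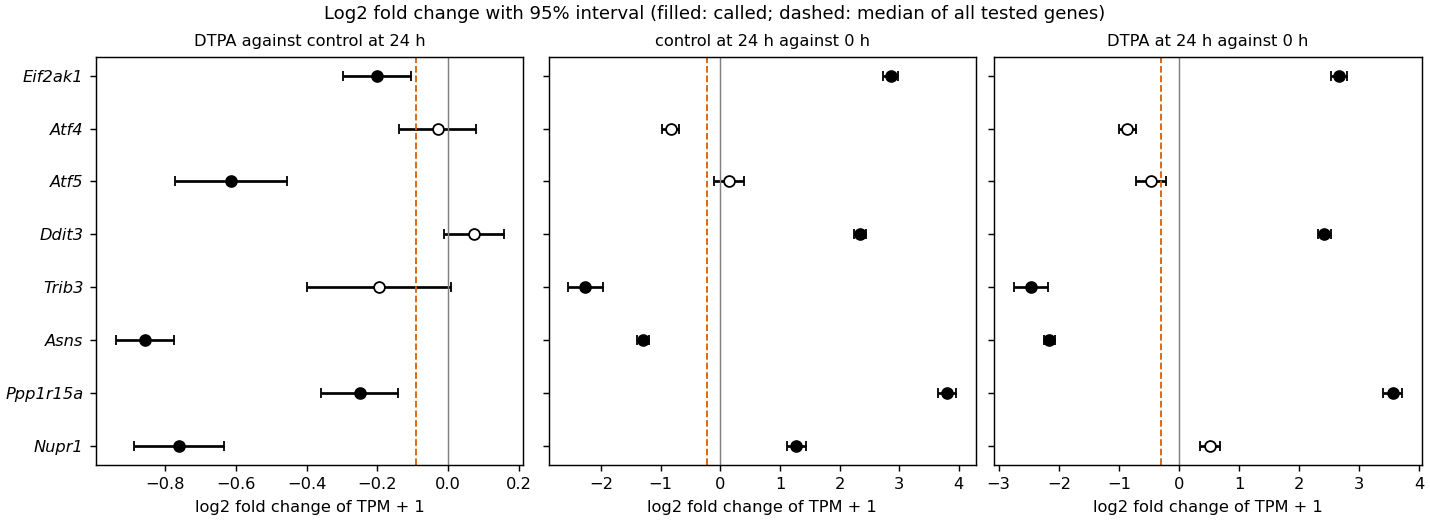
Log2 fold change of TPM + 1 (horizontal axes, of different range) with its 95% interval for each detected gene in 3 comparisons that share libraries; filled points were called, and the dashed line is the median of all tested genes. At 24 h, Asns, Nupr1 and Atf5 lie furthest below 0, whereas against 0 h Ppp1r15a, Eif2ak1 and Ddit3 lie furthest above.

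DTPA at 24 h was also set against 0 h, a comparison that shares its libraries with the other 2. Of 8 members tested, 5 were called, with Ppp1r15a, Eif2ak1 and Ddit3 higher and Trib3 and Asns lower. Of all 12016 genes tested, 43.3% were called, 15.7% higher and 27.6% lower. Log2 fold changes were 3.56 for Ppp1r15a, 2.66 for Eif2ak1, 2.42 for Ddit3, -2.46 for Trib3 and -2.16 for Asns. Nupr1 (0.52), Atf5 (-0.47) and Atf4 (-0.86) were short of the 2-fold minimum. The all-gene median was -0.30 there.

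The rest of the pathway was read in 6 lists of 119 further symbols, of which 118 had a row and 11 were at 0 in every library. Under DTPA, 15 of the 92 tested were higher, 51 lower and 26 did not pass (limma), against 21.7% higher and 36.4% lower over all genes. With size factors the split under DTPA was 17 higher and 41 lower, and with quantile normalization 21 and 38. With control against 0 h, 14 of 95 were higher and 30 lower, against 15.1% and 24.3% over all genes. The list medians were -0.21 and -0.52, beside -0.09 and -0.22 over all genes. The list of amino acid and redox targets of ATF4 held 24 of those 51 lower genes.

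Of 28 tested amino acid and redox targets, 24 fell under DTPA, 1 rose and 3 did not pass, with a median log2 fold change of -0.63, where 36.4% of all genes fell and 21.7% rose. With size factors 23 fell, and with quantile normalization 22. The largest falls were those of Slc1a5, a glutamine transporter, from 36.4 to 9.94 TPM, the serine and glycine enzyme gene Shmt2, from 177 to 64.8 TPM, and the alanyl-tRNA synthetase gene Aars, from 301 to 131 TPM. The riser was Aldh18a1, of proline synthesis, with a log2 fold change of 0.21 (limma adjusted p = 0.00269). With control against 0 h, 14 of 30 fell and 2 rose, with a median of -0.97, where 24.3% of all genes fell and 15.1% rose, and 10 fell with size factors. Mthfd1l, a mitochondrial folate enzyme gene, went from 160 TPM at 0 h to 3.55 TPM in the controls, Slc1a4 from 13.7 to 1.06 TPM and Shmt2 from 776 to 177 TPM. The transporter genes Slc7a5 and Slc6a9 rose, from 259 to 848 TPM and from 18.6 to 50.2 TPM. Thus Slc1a5 and Aars were at 29.5 and 172 TPM at 0 h and had their highest mean levels in the controls, while Shmt2 was highest at 0 h. Phgdh, the first enzyme gene of serine synthesis, was listed at 0 in all libraries.

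Most of the genes for eIF2, its exchange factor and its other kinases were lower under DTPA on the deposited scale. Of 11 genes for the other kinases, eIF2 and its exchange factor eIF2B, 8 fell under DTPA and none rose, with a median of -0.30, beside 36.4% and 21.7% of all genes. With size factors 6 fell, and with quantile normalization 5. Eif2b3, an eIF2B subunit gene, had the largest fall, from 7.95 to 3.16 TPM (limma adjusted p = 5.59e-05). With control against 0 h, 4 fell and none rose, beside 24.3% and 15.1% of all genes, again led by Eif2b3, from 25.6 to 7.95 TPM, and by Eif2b5 and Eif2b1. Phosphatase and start-site factors were split, with 5 of 14 higher and 5 lower under DTPA, beside 21.7% and 36.4% of all genes. The phosphatase catalytic gene Ppp1ca fell from 860 to 504 TPM, while Mcts1, of reinitiation, rose from 35.5 to 49.0 TPM. Impact, whose product restrains the kinase encoded by Eif2ak4, rose with differentiation from 12.5 to 79.1 TPM, and Denr, the partner of Mcts1, fell from 50.5 to 9.18 TPM.

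Mitochondria signal to the Eif2ak1 kinase through the protease OMA1 and the relay protein DELE1. Of 6 genes in that list, Dele1 rose under DTPA, from 31.2 to 38.0 TPM (limma adjusted p = 0.00746), and 4 fell, among them Oma1, from 13.3 to 10.3 TPM (adjusted p = 0.0427), and the prohibitin gene Phb, from 36.3 to 23.6 TPM. All genes gave 21.7% higher and 36.4% lower, and with size factors 1 of the 6 rose and 2 fell. With differentiation Phb and Phb2 fell from 278 to 36.3 and from 402 to 63.7 TPM, and Oma1 from 29.8 to 13.3 TPM.

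Among 17 tested bZIP partners and regulators, 2 rose and 7 fell under DTPA, and the 52.9% called were near the 58.1% over all genes. By direction, 21.7% of all genes rose and 36.4% fell. Jun rose from 15.0 ± 1.83 to 39.5 ± 0.986 TPM (SD, n = 3; limma adjusted p = 1.03e-05) and Jund from 68.2 to 132 TPM, both encoding AP-1 subunits that can pair with ATF factors. Xbp1, the factor of another branch of the unfolded protein response, fell from 125 to 70.1 TPM. With size factors 3 rose and 4 fell, and with quantile normalization 5 rose and 4 fell. In the controls Atf6, Xbp1 and Jun were higher than at 0 h, at 131 against 22.5 TPM, 125 against 33.2 TPM and 15.0 against 3.61 TPM. Cebpb, a partner of ATF4, fell from 6.75 to 2.44 TPM.

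Signalling and growth targets of ATF4 or CHOP went both ways. Of 16 tested, 9 were called under DTPA, or 56.2%, near the 58.1% over all genes. By direction, 6 rose and 3 fell, where 21.7% of all genes rose and 36.4% fell. The 6 that rose were led by Bbc3, which encodes the cell death protein PUMA (91.5 to 173 TPM), Cdkn1a (201 to 258 TPM) and Herpud1 (52.5 to 65.8 TPM). The 3 that fell were the heme oxygenase gene Hmox1 (107 to 66.1 TPM), Mknk2 and Sesn2. Bbc3 and Cdkn1a are also textbook p53 targets. With size factors 7 rose and 2 fell, and with quantile normalization 8 and 2. With differentiation 6 of 17 rose, led by Hmox1, from 10.5 to 107 TPM, and the autophagy genes Map1lc3b and Atg12, and 5 fell, led by Vegfa, from 20.6 to 0.223 TPM, where 15.1% of all genes rose and 24.3% fell. The stress hormone genes Gdf15 and Fgf21 were listed at 0 in every library.

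**Figure D4:**
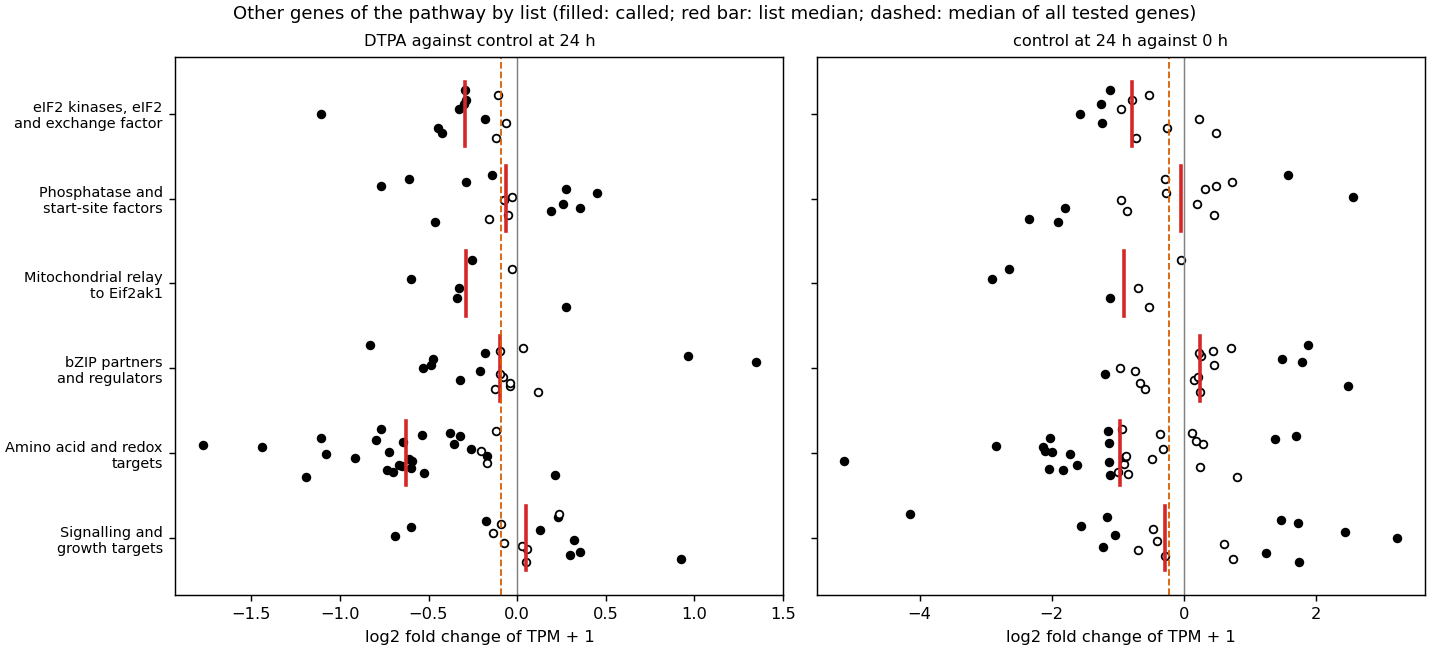
Log2 fold change of TPM + 1 (horizontal axes, of different range) of each tested gene in the 6 pathway lists for DTPA against control (left) and control against 0 h (right); filled points were called, the red bar is the list median and the dashed line the median of all genes. The amino acid and redox targets sit furthest left under DTPA, with a median of -0.63.

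The genes whose pattern was closest to Atf4 and to Eif2ak1 were sought among 8864 other genes whose mean level was 5 TPM or more, by the root mean square difference of centred log2(TPM + 1) over the 7 libraries. For Atf4 these were Cdc73, Trim37, Cdc16, Ovca2 and Tomm34, with differences of 0.0275 to 0.043. For Eif2ak1 they were Washc2, Ccdc134, Sord, St3gal5 and Rfxank, with differences of 0.0266 to 0.0464. The libraries form only 3 groups, so many genes can share such a pattern.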

How the data were processed

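Messenger RNA was sequenced from 7 libraries. Per the labels' protocols, the library kit was Illumina TruSeq Stranded mRNA. The submitters' processing notes name Trimmomatic 0.33, FastQC, HISAT2 2.1.0, featureCounts and edgeR, with build mm10. Which annotation, strand option and gene lengths were used is not given in the sources used here. Levels were deposited as TPM per gene symbol, so a gene's value depends on all others in its library. Values of 114 symbols on more than 1 row were summed.

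Reads behind a value were estimated from the step of low TPM values and GENCODE M21 exon lengths, by which 98.5% to 99.1% of low values lay within 0.1 of a whole read.

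Tests used limma 3.58.1 (R 4.3.3). The model took log2(TPM + 1), which understates changes of low genes, with a mean-variance trend, and was two-sided, Benjamini-Hochberg adjusted over all tested genes, threshold 0.05. DTPA was compared with control in 6 libraries; a gene needed 1 TPM or more in 3 of them. Comparisons with 0 h used all 7 libraries, with a group mean of 1 TPM or more in either group, and a call needed a log2 fold change of at least 1 in size. The fits were also run on simulated data with 1 fixed dispersion and few changed genes. These data differ from that setting, so that run is not a check of the results given here. Named genes are all members, up to 3 called genes per direction with the largest changes in each list, and 5 genes most like Atf4 and Eif2ak1. Phgdh, Gdf15, Fgf21, Eif2ak2, the named cell type markers and proteasome genes and the overlapping genes fall outside that rule and were named after their values were seen. Members and lists were chosen with earlier results of these data known. Alternatives were other pseudocounts, filters and scalings, no trend, a replicate block and leaving out each 24 h library.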

Additional observations from a re-analysis of the deposited data

How the results depend on the processing

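For the 8 detected genes in 3 comparisons, each value was recomputed under 15 alternatives. Against 0 h, none of the 120 values for control or the 120 for DTPA changed sign or its call, which needs both the adjusted p and the 2-fold minimum. The adjusted p of Atf5 alone crossed 0.05 there with size factors, to 0.0441 for control (0.30) and to 0.127 for DTPA (-0.21), both short of 2-fold. For DTPA against control, where the call needs only the adjusted p, 111 of 120 kept both sign and call. Eif2ak1 lost its call under quantile normalization (-0.065). Ddit3 gained one with size factors (0.17), quantile normalization (0.18) and without globin genes (0.10). Atf4 turned positive with size factors (0.071), quantile normalization (0.13) and without globin genes (0.0018), and ranged from -0.055 to 0.0055 when each 24 h library was left out, positive without control replicate 3. Trib3 ranged from -0.26 to -0.14 when each was left out, and gained a call without DTPA replicate 2 (-0.26). The cause was not tested; the median of all genes moved from -0.09 to 0.002 with size factors and 0.01 with quantile normalization. Members called numbered 5 or 6 for DTPA against control, 6 for control against 0 h and 5 for DTPA against 0 h under every alternative. Pathway genes called ranged from 58 to 67, 37 to 47 and 49 to 58. The split of members for DTPA against control moved with the scaling. It was 0 higher and 5 lower on the deposited scale and 1 and 5 with size factors or without globin genes. With quantile normalization it was 2 and 4. Over all genes, 37.3% of calls for DTPA against control were higher on the deposited scale, 48.3% with size factors and 50.6% with quantile normalization. With control against 0 h these were 38.3%, 45.8% and 50.1%.

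No deviation shared by replicate number was seen, as deviations of same-numbered control and DTPA libraries correlated at -0.011, 0.029 and -0.005. These values cannot settle whether the libraries were paired by design. With the replicate block, 5 members were called for DTPA against control, 6 for control against 0 h and 5 for DTPA against 0 h, as without it. Precision is limited by 3 libraries a group, a lone 0 h library and few reads of Trib3.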

Other observations

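Levels of the members relative to Atf4 within each library, which are unaffected by a factor common to a library, shifted with differentiation. The ratio of Ddit3 to Atf4 on the TPM scale was 0.413 at 0 h, 4.07, 3.79 and 3.57 in the controls and 4.13, 3.93 and 4.20 under DTPA. For Ppp1r15a the ratio was 0.395 at 0 h, 10.7, 10.3 and 9.20 in the controls and 8.37, 8.44 and 9.02 under DTPA. Asns moved the opposite way, from 6.41 at 0 h to 4.78, 4.64 and 4.56 in the controls and 2.69, 2.50 and 2.67 under DTPA. Trib3 stood at 0.752 of the level of Ddit3 at 0 h and at 0.0206 to 0.0298 of it in the libraries at 24 h. Genes commonly used together as readouts of the same response thus did not move together from 0 h to 24 h. For DTPA against control, 5 of 8 members tested were lower and none was called higher on the deposited scale. Of all genes tested there, 36.4% were lower and 21.7% higher. Ratios within a library show unequal change and not which gene changed.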
